A study of Mus musculus with 8 samples.

Results

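The epithelial carcinoma cells of the large KPC tumor were the 560 of its 1533 cell barcodes that were selected on their own counts, a share of 36.5% (exact 95% binomial interval 34.1% to 39.0%). A barcode was taken when it held at least 1 unique molecular identifier (UMI, standing for a captured mRNA molecule) for 3 or more of 11 epithelial genes, namely the keratin genes Krt7, Krt8 and Krt18, the claudin genes Cldn3, Cldn4 and Cldn7, and Muc1, Spint2, Tspan8, Cdh1 and Elf3. It also had to hold fewer than 3 UMIs in sum over the intestinal genes Fabp1, Fabp2, Apoa4, Muc2 and Zg16. Lastly, fewer than 3 of the 11 macrophage genes Lyz2, C1qa, C1qb, C1qc, Cd68, Csf1r, Adgre1, Mrc1, Cd14, Fcgr3 and Ms4a7 could have a UMI. These 27 genes chose the cells, so their levels in the cells are a description and carry no test. The 2 tumors together held 4345 barcodes, and the same rule took 2071 of the 2812 barcodes of the medium tumor.

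Both tumors are pancreatic ductal adenocarcinomas of KPC mice, whose alleles include LSL-Trp53R172H/+ and Pdx-1-Cre. The mice of both tumors were untreated controls, and their ages are not given in the sources used here. Pdx-1-Cre acts in the early pancreas, and because Pdx1 is also used in the duodenum and the distal stomach, Cre can act outside the pancreas as well. Whole tumors were dissociated with no stated sort, and 4 technical replicates of each tumor were pooled in 1 table, so each tumor is 1 sample and no test and no p-value between tumors or between cells was computed.

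Pancreatic ductal adenocarcinoma arises from the exocrine pancreas, where acinar and duct cells can turn into preinvasive lesions that express duct keratins and, often, genes of the stomach lining such as trefoil factors and gastrokines. Tumors that keep this glandular program are called classical, and tumors that lose it for keratins of stratified epithelium or for mesenchymal genes are called basal-like or quasi-mesenchymal. Simple epithelia are held together by keratins 8, 18, 19 and 7, by claudins at the tight junction and by E-cadherin, the product of Cdh1. Cdkn2a encodes the cell cycle inhibitor p16Ink4a and, from another first exon, p19Arf, which stabilises p53. Loss of p53 function is followed in many tumors by high Cdkn2a transcripts, so the gene can mark carcinoma cells in tumors of this kind.

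The 560 cells held 1217544 UMIs, 54.4% of the table of the large tumor, with a median of 1799.5 UMIs per cell (537 to 11294) against 834 in the 973 other cells. In the medium tumor the 2071 cells of the same rule had a median of 5572 UMIs. Levels are given as CPM, the UMIs of a gene per 1000000 UMIs summed over a group of cells, and the range in parentheses after a CPM is its exact 95% Poisson interval, which covers counting error only. Where no UMI was seen, the limit that 3 counts allow is 2.46 CPM over all 560 cells. The other barcodes of the large tumor were 304 cells past the intestinal limit (the intestinal class), 175 cells with 3 or more macrophage genes (the macrophage class), 4 cells with both epithelial and macrophage genes and 490 remaining cells. The 2 tables shared 5 barcode sequences, 2 of them among the 560 cells. The 13 mitochondrial protein genes were at 0 in both tables. Scrublet called 1 of the 560 cells and 9 of all 1533 a doublet, and no cell was removed.

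The number of epithelial genes seen per cell followed depth. Of the 560 cells, 187 showed exactly 3 of the 11 genes, at a median of 1337 UMIs, 144 showed 4, 99 showed 5, and the others 6 to 10. The 11 cells with 9 genes had a median of 4409 UMIs, and no cell showed all 11. Over these cells and the 490 remaining cells, Spearman's rho between genes seen and UMIs was 0.601 (1050 cells that share 1 library). Of the genes that chose the cells, Tspan8, a tetraspanin of secretory epithelia, stood at 1432 CPM (1366 to 1501), Krt18 at 1209 CPM (1148 to 1272), Krt8 at 1134 CPM (1075 to 1196) and Krt7 at 358 CPM (325 to 393). Of the junction genes, Cdh1 stood at 175 CPM (152 to 200.1) and the claudin genes Cldn7, Cldn3 and Cldn4 at 117, 101 and 76.4 CPM. The remaining genes were Spint2, a protease inhibitor, at 284, the mucin Muc1 at 145 and the transcription factor Elf3 at 53.4 CPM.

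**Figure D1:**
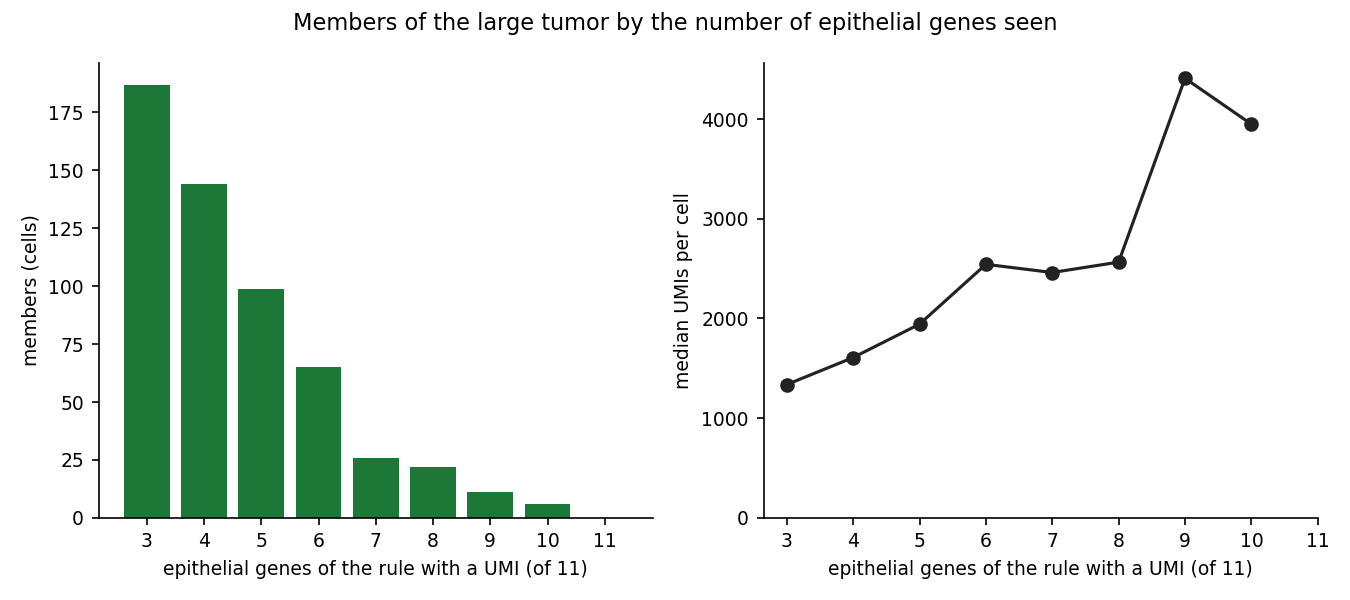
The left panel counts the 560 cells by the number of the 11 epithelial genes with a UMI, and the right panel gives the median UMIs per cell at each number. Cells with 3 genes are the most frequent (187) and have the lowest median (1337 UMIs), and no cell showed 11.

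At the edge of the rule the cells changed gradually. The 187 cells with exactly 3 epithelial genes had 191 CPM of Cdkn2a and 773 CPM of Epcam, and the 176 cells with 2 genes, just outside, had 212 and 460 CPM. The 146 cells with none had 78.1 CPM of Cdkn2a, 234 CPM of Epcam and 1164 CPM of the collagen gene Col1a1, against 58.6 CPM of Col1a1 in the cells with 2 genes. Cdkn2a was thus not lower just outside the threshold of 3 genes than just inside it, while Epcam and Krt19 (144 against 283 CPM) were. At the intestinal limit the 40 cells with 2 intestinal UMIs, just inside, had 252 CPM of Cdkn2a and 84.1 CPM of Tff3, a trefoil factor of goblet cells, and the 14 cells with 3 UMIs, just outside, had 143 and 167 CPM. All 175 cells with 3 or more UMIs that otherwise met the rule had 33.5 CPM of Cdkn2a and 2769 CPM of Tff3.

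The label rests on Krt8, Krt18, Krt19, Epcam and Cdkn2a, of which the first 2 chose the cells. Krt19, the keratin of duct cells, stood at 415 CPM (379 to 453) in the 560 cells, 698 in the intestinal class, 42.7 in the macrophage class and 108 in the remaining cells. Epcam, an adhesion molecule of simple epithelia, stood at 1106 CPM (1047 to 1166), against 1818, 28.5 and 397 CPM in the same 3 groups. Both genes were thus as high or higher in cells with intestinal genes, and low in the macrophage class. Cdkn2a stood apart from them, with 179 CPM (156 to 204) in the 560 cells, 29.1 CPM (10 UMIs) in the intestinal class, 28.5 CPM (7.76 to 72.9) in the macrophage class and 157 CPM (125 to 195) in the remaining cells. At least 1 UMI of Cdkn2a was seen in 27.7% (24.0% to 31.6%) of the 560 cells, and in 2.29% of the macrophage class, whose median depth was 714 UMIs. With every cell thinned to 1000 UMIs, the share was 17.2% of 447 cells and 3.03% of 33 cells.

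Cdkn2a lies on chromosome 4 of GRCm38 at chr4:89274471-89294653, on the reverse strand. In the GENCODE M21 annotation its 2 coding transcripts start from separate first exons, at chr4:89281986-89282192 and at chr4:89294334-89294653, and share the second exon at chr4:89276645-89276985 and nearly all of the third, which holds the 3′ end. Counts of a 3′ method therefore add p16Ink4a and p19Arf transcripts together, and which of them the 218 UMIs stand for cannot be told apart.

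Cdkn2a divided the 560 cells. Clustering them on their own gave 5 clusters, numbered by size, with 212, 153, 119, 64 and 12 cells. Cdkn2a was at 119 CPM (84.9 to 162) in cluster 1, 216 CPM (177 to 260.2) in cluster 2 and 245 CPM (191 to 311) in cluster 3, and no UMI of it was seen in clusters 4 and 5. The limit that 3 counts allow is 38.1 CPM in cluster 4, below the intervals of clusters 1 to 3. In cluster 5 it is 192 CPM, above the interval of cluster 1 and inside those of clusters 2 and 3. Cluster 4 nevertheless held the highest Krt8 (3344 CPM) and Epcam (2657 CPM) of the 5. Its cells thus met the keratin and Epcam part of the label and not its Cdkn2a part, and their leading genes were those of intestinal epithelium. The 64 cells of cluster 4 (11.4%) and the 12 of cluster 5 (2.14%) are therefore called by number and leading genes, with no cell type name. The 484 cells of clusters 1 to 3 had 194 CPM (169 to 222) of Cdkn2a.

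**Figure D2:**
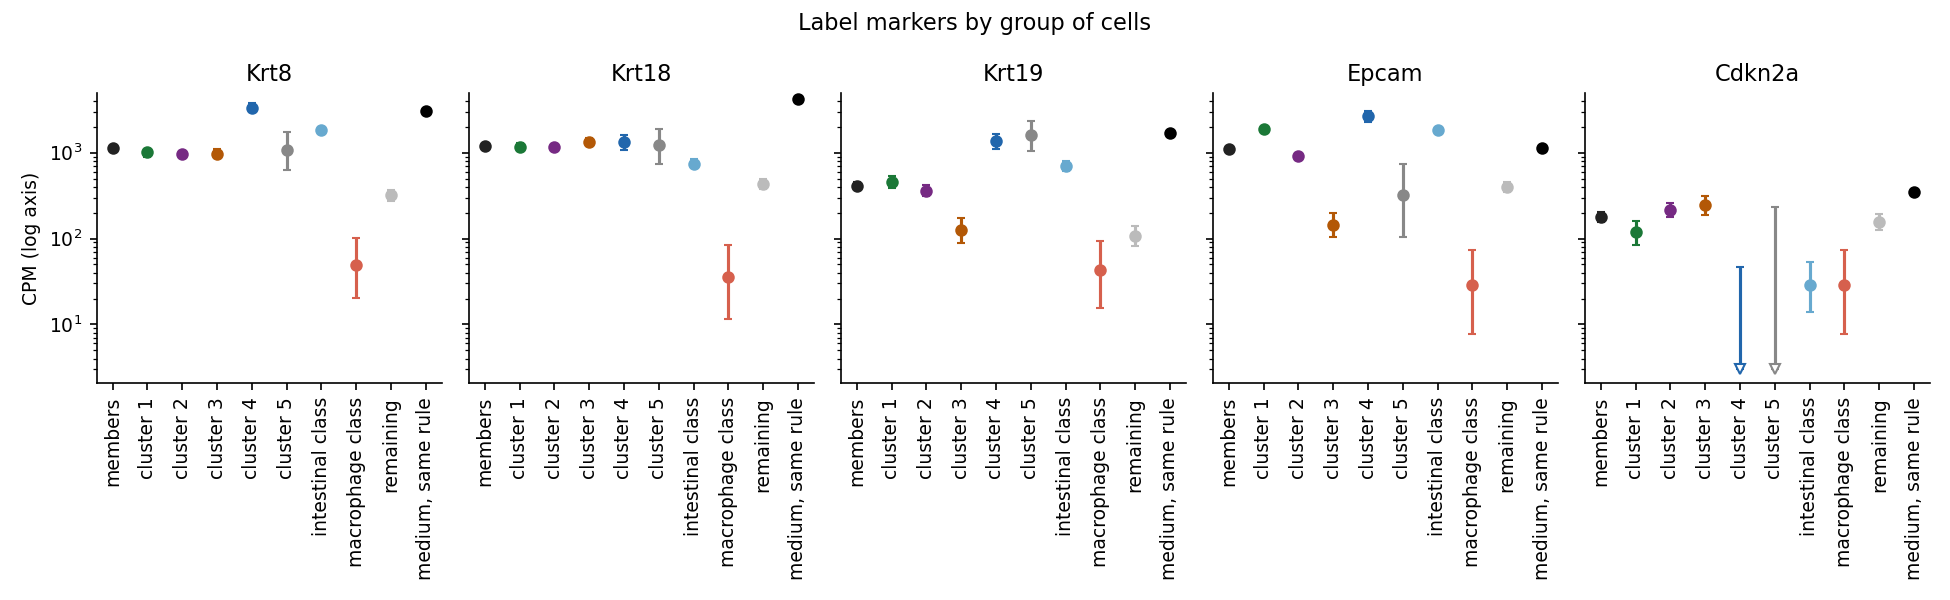
CPM (log axis) of the 5 label markers in the 560 cells (members), their 5 clusters, the other classes of the large tumor and the medium-tumor cells of the same rule. Points are sums over cells, bars exact 95% Poisson intervals, and open triangles mark 0 UMIs. Krt8, Krt18, Krt19 and Epcam are present in cluster 4, and Cdkn2a is at 0 in clusters 4 and 5.

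Set against the 973 other cells of the large tumor, 61 of 2595 genes with a mean of at least 50 CPM were at least 2-fold higher in the 560 cells (2.35% of the genes) and 225 were at least 2-fold lower (8.67%). The rule used this contrast, so these values describe the choice. Outside the rule's own genes, the highest ratio was that of Ly6a, the surface protein Sca-1, at 412 CPM against 85.2, a ratio of 4.84 (3.85 to 6.15), where the range is an exact 95% binomial interval. Fxyd3, a regulator of the sodium pump, had a ratio of 3.23 (2.61 to 4.03), Wfdc2, a secreted protease inhibitor of ducts and airways, 3.22 (2.88 to 3.60), and Cldn18, the tight junction claudin of the stomach, 3.18 (2.39 to 4.28). The secreted gastric genes Tff1 and Gkn3 followed, at 1207 and 765 CPM and ratios of 2.85 (2.56 to 3.18) and 2.80 (2.45 to 3.21). Clu, a secreted chaperone of duct cells, stood at 3259 CPM (3158 to 3362) against 1479 CPM.

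Other genes among the 25 with the highest ratios are known from several processes. Ccnd1 (cyclin D1) stood at 340.0 against 161 CPM and its partner kinase Cdk4 at 214 against 114. Ranbp1, of nuclear transport, stood at 1212 against 686, Slc25a4, the mitochondrial ADP/ATP carrier, at 939.6 against 498 and Dut, which removes dUTP, at 442 against 248. Cyr61, a secreted protein under Yap1, and Tnfrsf12a, the receptor of TWEAK, had ratios of 1.85 and 1.87. The annexin Anxa3 (ratio 2.04), S100a11 (1.84) and Hmgn1 (1.96) were also among the 25. Cdkn2a was the 23rd, with a ratio of 1.87 (1.46 to 2.39), and the 490 remaining cells held 157 CPM of it.

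Among the 10 genes with the lowest ratios were markers of the intestinal and macrophage classes. Fabp1, the fatty acid binding protein of enterocytes, stood at 87.1 CPM in the 560 cells and 13869 in the intestinal class, and Lyz2, the lysozyme of macrophages, at 90.3 CPM and 16690.4 in the macrophage class. Both genes were in the rule, which limits their level in the 560 cells. The others of the 10 were Fabp2, Ctss, Srgn, Fth1, Prap1, Cxcl2, Sepp1 and Ctsc, of which Sepp1 is among the leading genes of cluster 1 and Prap1 of cluster 4. Markers of further cell types were low in the 560 cells. The 10 fibroblast genes summed to 128 CPM (109 to 149.9), against 1747 CPM in the remaining cells, with Col1a1 at 27.1 CPM and 3.0 of the 10 at 0. The 10 endothelial genes summed to 58.3, the 17 acinar genes to 40.2 and the 10 endocrine genes to 8.21 CPM, and 7.0 of the acinar and 8.0 of the endocrine genes were at 0. The 7 granulocyte genes summed to 471 CPM against 3174 in the macrophage class. T cell genes came to 3 UMIs and mast cell genes to 11 UMIs in all.

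Cluster 1, with 212 cells at a median of 1343 UMIs, was led by genes of the gastric mucosa. With all cells of the tumor clustered together it divided, with 106 of its cells in a cluster of 138 led by Gkn2, Gkn3 and Tff1 (median 1884 UMIs) and 98 in a cluster of 226 led by Onecut2 and, among others, Xist and Malat1 (median 819 UMIs). Among its 10 leading genes were Gkn3, Tff2, Agr2, Tff1, Mal, Tspan13, Sepp1, Bace2 and Fxyd3. The clusters were drawn from these counts, so the levels describe them and carry no test. Gkn3, a gastrokine of the stomach lining, stood at 2469 CPM (2304 to 2643) in cluster 1, 108 in cluster 2, 68.6 in cluster 3 and 331 in cluster 4. Tff2 and Tff1, trefoil peptides that stiffen gastric mucus, stood at 2439 and 2873 CPM in cluster 1 and at 97.4 and 137 in cluster 3. Agr2, the disulfide isomerase needed to fold mucins, stood at 2338 CPM in cluster 1, but was higher in cluster 4 (3445). Muc6, the mucin of gastric glands, was at 125 CPM (89.9 to 169) in cluster 1 and at 0 in clusters 2 and 3. Over the list of 22 gastric and classical genes the sum was 15558 CPM (15139.9 to 15986) in cluster 1, 2793 in cluster 2 and 1569.5 in cluster 3.

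The UMIs of the secreted genes of cluster 1 came in part from few cells. Of the 423 UMIs of Gkn2, 78.7% lay in 10 of the 560 cells and 132 in 1 cell, and of the 1059 UMIs of Tff2, 56.6% lay in 10 cells. Tff1 had 42.8% and Gkn3 33.4% of their UMIs in 10 cells. Krt18, 1 of the genes that chose the cells, had 9.24% in 10 cells, and Cdkn2a, which did not choose them, had 16.1%. In all, 155 of the 560 cells had a UMI of Gkn3, 160 of Tff1 and 155 of Cdkn2a. Gkn2 and Tff2 were seen in fewer cells, 53 and 111. The macrophage class had Gkn3 in 2.29% and Tff1 in 2.86% of its cells, at a median of 714 against 1799.5 UMIs. Cldn18 was even over clusters 1, 2 and 3 (223, 226 and 162 CPM) and at 0 in clusters 4 and 5.

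The 3 gastrokine genes are neighbours on chromosome 6, and their promoters are shown because the 3 genes differed in which cells held them. The windows run from 250 bases before to 50 bases after the start in RefSeq, build GRCm38.p6, and are chr6:87350866-87351165 on the reverse strand, chr6:87373115-87373414 on the forward strand and chr6:87388886-87389185 on the reverse strand. Capitals mark GATAAG or its reverse complement CTTATC, the core that GATA factors bind, and TATAAA or TTTATA, the TATA box.
Gkn1: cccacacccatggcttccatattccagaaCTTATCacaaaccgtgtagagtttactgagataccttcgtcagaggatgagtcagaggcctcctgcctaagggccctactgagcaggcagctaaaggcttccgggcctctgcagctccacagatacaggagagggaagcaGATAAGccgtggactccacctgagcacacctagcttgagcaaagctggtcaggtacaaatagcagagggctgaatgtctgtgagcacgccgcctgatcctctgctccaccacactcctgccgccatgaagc
Gkn2: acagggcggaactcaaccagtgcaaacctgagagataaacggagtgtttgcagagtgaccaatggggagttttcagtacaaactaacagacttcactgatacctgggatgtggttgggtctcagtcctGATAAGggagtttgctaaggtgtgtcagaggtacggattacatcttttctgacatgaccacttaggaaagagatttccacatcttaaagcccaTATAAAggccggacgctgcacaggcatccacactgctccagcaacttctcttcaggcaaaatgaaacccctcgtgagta
Gkn3: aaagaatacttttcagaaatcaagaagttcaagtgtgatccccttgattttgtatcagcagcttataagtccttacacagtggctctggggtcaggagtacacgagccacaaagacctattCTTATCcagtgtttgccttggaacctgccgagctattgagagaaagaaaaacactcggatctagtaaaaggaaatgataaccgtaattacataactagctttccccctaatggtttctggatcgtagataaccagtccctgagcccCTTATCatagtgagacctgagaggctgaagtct
GATAAG on either strand is held by 7.44% and TATAAA by 13.6% of the 32851 promoter windows of the table. Gkn1 and Gkn3 held GATAAG 2 times each, and Gkn2 held GATAAG and TATAAA once each. Gata6, a factor of the classical program, was at 59.4 CPM (36.3 to 91.8) in cluster 1 and 43.3 CPM (22.4 to 75.6) in cluster 3. Gkn1 stood highest in cluster 4, at 636 CPM (472 to 838) against 413 CPM (347 to 488) in cluster 1, whereas Gkn2 and Gkn3 were highest in cluster 1, with Gkn2 at 1176 CPM against 139.8 in cluster 4. Of the 195 UMIs of Gkn1, 59.5% lay in 10 cells, and 50 were in cluster 4. A match of letters is a description and says nothing of binding.

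Cluster 2, with 153 cells at a median of 2629 UMIs, was led by genes of mitosis together with Ly6a. Its 10 leading genes were Ube2c, Cdc20, Ly6a, Cdca8, Cenpa, Birc5, Ccnb2, Hmgb2, Ddx39 and Tyms. Ube2c, the ubiquitin-conjugating enzyme of the anaphase-promoting complex, stood at 275 CPM (231 to 324), against 47.5 CPM in cluster 1 and 18.0 in cluster 3. Cdc20, the activator of that complex, stood at 122, 5.94 and 18.0 CPM in the same order. Cenpa, the histone of the centromere, stood at 287, 35.7 and 36.1 CPM, and Birc5, the survivin of the chromosomal passenger complex, at 287, 47.5 and 36.1. The 25 mitosis genes summed to 3509 CPM (3348 to 3676) in cluster 2, 674 CPM (589.5 to 768) in cluster 1 and 902 CPM (794 to 1021) in cluster 3. The 24 DNA replication genes differed less, at 1672, 680.3 and 1349 CPM. Mcm4, of the replication helicase, was higher in cluster 3 (97.4 CPM, 64.2 to 142) than in cluster 2 (39.3 CPM, 24.0 to 60.6). Thinned to 1000 UMIs per cell, Cenpa was seen in 25.2% of 151 cells of cluster 2, 1.42% of 141 cells of cluster 1 and 3.60% of 111 cells of cluster 3. Cenpa is among the genes that lead cluster 2, so this describes the cluster. With all cells of the tumor clustered together, 137 of the 153 cells fell in 1 cluster of 190 cells, 152 of them among the 560.

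Ly6a was the one surface gene of this kind among the 10. It stood at 773 CPM (699 to 854), against 199 in cluster 1 and 86.6 CPM in cluster 3. Anxa3 was also highest there (1723 CPM), as were Wfdc2 among clusters 1 to 4 (1645) and Ccnd1 (444). Vim, the mesenchymal intermediate filament, lay between clusters 1 and 3, at 875 CPM against 125 and 1916, and so did Epcam (907, 1872 and 144 in the same order). Cdkn1a, the p21 inhibitor induced by p53, was lower in cluster 2 (55.0 CPM, 36.5 to 79.4) than in cluster 1 (181 CPM, 139 to 233).

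Mitotic genes are switched on together late in the cell cycle, through CCAAT boxes bound by NF-Y and through the cell cycle homology region, whose common form is TTTGAA. The promoters of 4 leading genes of cluster 2 are shown for these letters, in the same RefSeq windows, with capitals for CCAAT or ATTGG and for TTTGAA or TTCAAA. They lie at chr2:164769679-164769978 (forward strand), chr4:118437294-118437593 (reverse), chr5:30666636-30666935 (forward) and chr9:70421505-70421804 (reverse).
Ube2c: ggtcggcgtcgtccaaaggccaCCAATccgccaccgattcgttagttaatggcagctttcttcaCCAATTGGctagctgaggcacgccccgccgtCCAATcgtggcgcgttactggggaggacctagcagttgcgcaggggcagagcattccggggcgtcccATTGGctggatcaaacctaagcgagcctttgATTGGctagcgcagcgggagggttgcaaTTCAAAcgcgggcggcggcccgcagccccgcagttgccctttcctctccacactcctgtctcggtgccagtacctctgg
Cdc20: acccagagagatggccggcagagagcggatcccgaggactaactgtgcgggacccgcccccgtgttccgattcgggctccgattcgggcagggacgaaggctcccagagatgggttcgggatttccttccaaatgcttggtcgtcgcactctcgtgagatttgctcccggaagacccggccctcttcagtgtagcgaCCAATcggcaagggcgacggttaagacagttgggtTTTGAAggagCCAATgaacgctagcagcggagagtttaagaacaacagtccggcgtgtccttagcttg
Cenpa: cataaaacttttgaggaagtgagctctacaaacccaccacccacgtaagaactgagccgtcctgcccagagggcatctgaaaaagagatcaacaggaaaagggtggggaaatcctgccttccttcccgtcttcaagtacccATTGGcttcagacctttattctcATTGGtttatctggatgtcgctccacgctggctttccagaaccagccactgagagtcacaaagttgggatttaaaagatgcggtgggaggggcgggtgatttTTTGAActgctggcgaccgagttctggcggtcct
Ccnb2: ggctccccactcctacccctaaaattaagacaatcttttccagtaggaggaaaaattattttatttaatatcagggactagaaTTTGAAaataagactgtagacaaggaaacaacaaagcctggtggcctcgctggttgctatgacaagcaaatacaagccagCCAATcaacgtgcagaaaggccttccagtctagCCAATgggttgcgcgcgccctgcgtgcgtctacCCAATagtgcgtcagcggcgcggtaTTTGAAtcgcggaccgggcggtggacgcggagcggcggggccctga
Ube2c held CCAAT 6 times, Ccnb2 3 times, and Cdc20 and Cenpa 2 times each, counting both strands and each of the overlapping matches in CCAATTGG, and each of the 4 held TTTGAA at least once. Of all promoter windows, 37.4% held CCAAT, 17.9% TTTGAA and 6.95% both. Of the 22 windows of the mitosis genes (21 of 25 genes were in the table), 20 held CCAAT and 16 TTTGAA. Of the 26 windows of the replication genes, 13 held CCAAT and 3 TTTGAA, so the 2 lists of the cell cycle differed in these letters.

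Cluster 3, with 119 cells at a median of 2003 UMIs, was led by fibronectin and other genes that mesenchymal cells use. Its 10 leading genes were Fn1, Ggct, Ramp1, Mmd, Rgs2, Ank, S100a4, Cald1, Ppap2b and Rbp4. Fn1, the matrix protein fibronectin, stood at 1898 CPM (1739 to 2067), against 199 CPM in cluster 1 and 347 in cluster 2. Vim stood at 1916, 125 and 875 CPM in the same order, and S100a4, a calcium-binding protein of migrating cells, at 361, 35.7 and 106. Cald1, the actin-binding caldesmon, stood at 271 CPM against 23.8 in cluster 1. Inhba and Bmp2, ligands of the TGF-beta family, stood at 137 CPM (97.0 to 188) and 72.2 CPM (44.1 to 111), against 2.97 and 14.9 CPM in cluster 1. Cdh2, the neural cadherin, stood at 112 against 14.9 CPM and Zeb1, a repressor of Cdh1, at 39.7 against 5.94 CPM.

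Epithelial genes that did not choose the cells were low in cluster 3, with Epcam at 144 CPM (103 to 197) and Krt19 at 126 CPM (88.0 to 176). The genes that chose the cells divided in it. Krt18 (1324 CPM) and Krt8 (971) were close to cluster 1 (1165 and 1007) and cluster 2 (1158 and 968), while Cdh1 (50.5), Cldn7 (7.22) and Elf3 (10.8) were lower than in cluster 1 (282, 166 and 89.1). Cluster 3 also held the highest Cdkn2a, and Spp1, the secreted phosphoprotein osteopontin, reached 37964 CPM (37242 to 38697), against 10737 in cluster 1 and 559 in cluster 4. Tm4sf1, a tetraspanin-like surface protein, stood at 4142 CPM, against 683 in cluster 1. Fibroblast markers moved with these genes, at a sum of 318 CPM (255 to 391) over 10 genes, against 2.97 in cluster 1 and 128 in cluster 2, with Col3a1, Col1a1 and Dcn at 93.8, 64.9 and 64.9 CPM in cluster 3. The share of collagen UMIs that came from other cells was not tested. Cells much like these lay outside the rule. With all cells clustered together, 101 of the 119 fell in 1 cluster of 279 cells with 168 of the remaining cells, where Cdkn2a was at 242 CPM (198 to 291) and Epcam at 86.4 CPM. Over all 490 remaining cells, Vim stood at 1227, Fn1 at 1908, Spp1 at 26332 and Cdkn2a at 157 CPM.

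**Figure D3:**
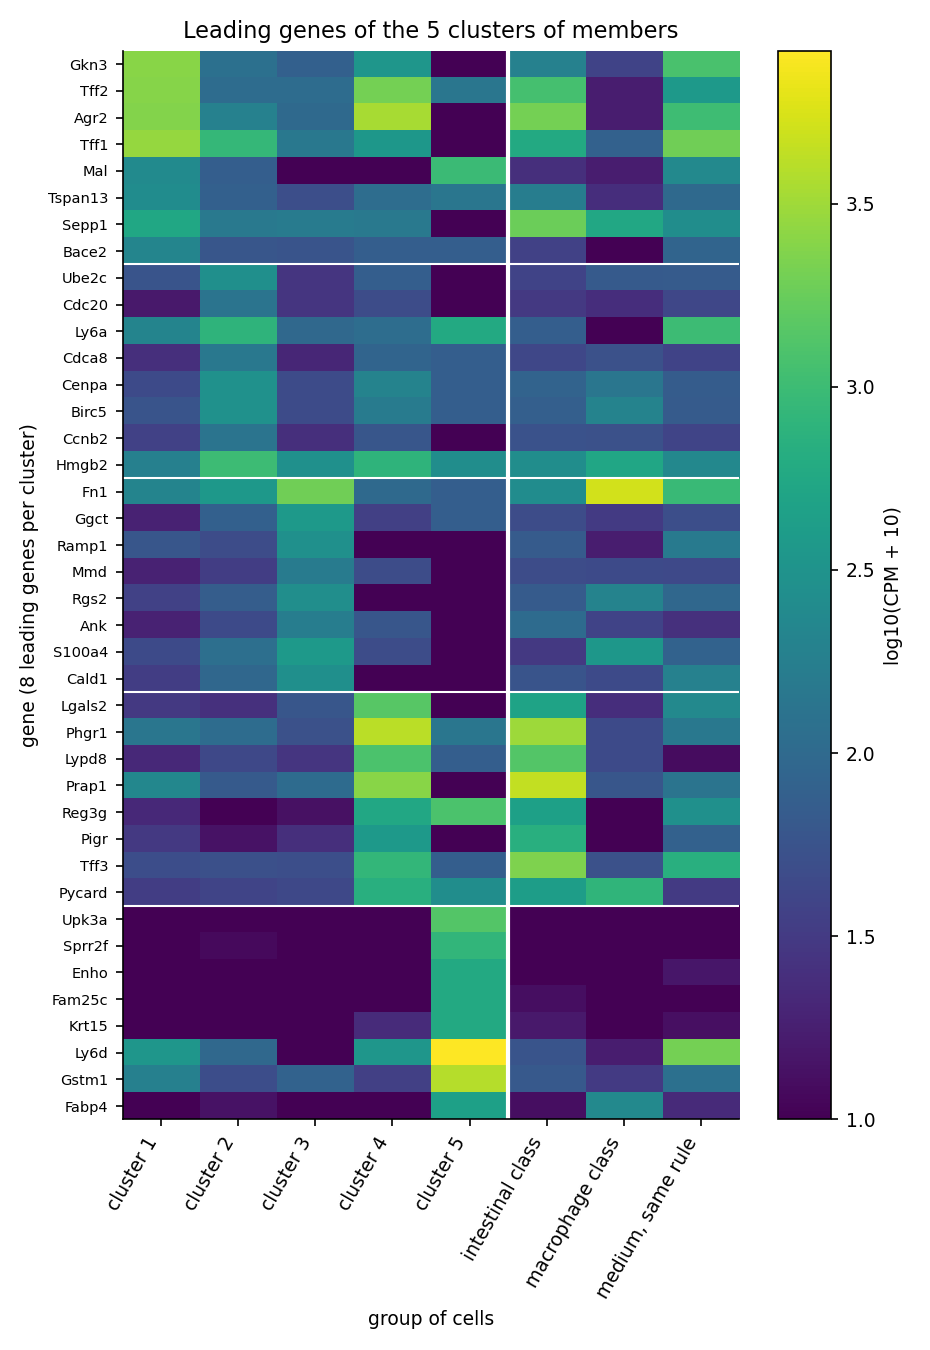
Colour gives log10(CPM + 10) of the 8 leading genes of each cluster (rows) in the 5 clusters, the intestinal and macrophage classes of the large tumor and the medium-tumor cells of the same rule (columns). The genes leading cluster 4 are also high in the intestinal class, and Upk3a, Sprr2f and Krt15 are high in cluster 5 and at or near 0 in the other columns.

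Cluster 4, with 64 cells at a median of 1138.5 UMIs, was led by genes of intestinal epithelium. Its 10 leading genes were Lgals2, Phgr1, Lypd8, Prap1, Reg3g, Pigr, Tff3, Pycard, Cdh17 and Tmem54. Phgr1, a gene of gut epithelium, stood at 4132 CPM (3695 to 4606), against 131 CPM in cluster 1 and 3084 in the intestinal class, and Cdh17, the intestinal cadherin, at 509, 2.97 and 695 CPM. Lypd8, which keeps bacteria off the colon lining, stood at 1233 CPM in cluster 4 and 1367 in the intestinal class. The 20 enterocyte genes summed to 11492 CPM (10755 to 12267), against 15798 in the intestinal class and at most 1548 CPM in clusters 1 to 3. Some genes of clusters 1 to 3 were low in it and others were not. Spp1 was at 559, Clu at 928, Wfdc2 at 114 and Tm4sf1 at 63.6 CPM, while Agr2 (3445), Gkn1 (636), Epcam (2657) and Dmbt1 (2454) were higher than in cluster 1. Of the 64 cells, 25 held 1 UMI of the 5 intestinal rule genes and 12 held 2, just under the limit. When all 1533 cells were clustered together, 62 of the 64 fell in 1 cluster of 155 cells with 68 cells of the intestinal class, in which Cdkn2a was at 11.2 CPM (2 UMIs). At resolutions of 0.4 and 1.2 and with 20 principal components, all 64 cells stayed together. Clusters 1 and 2 were less fixed, since at a resolution of 1.2 the best match of cluster 1 held 126 of its 212 cells, that of cluster 2 87 of 153 and that of cluster 3 113 of 119.

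Cluster 5 had 12 cells and 15619 UMIs. It was led by Upk3a, a uroplakin of urothelium, at 1345 CPM (832 to 2055), with no UMI in the other 4 clusters, and other leading genes were Sprr2f, Enho, Fam25c, Krt15, Ly6d, Gstm1, Fabp4 and Lmo1. Ly6d, a gene of stratified epithelium, stood at 8259 CPM (6896 to 9814), against 327 CPM in cluster 1, and Krt15, a basal keratin, at 576 CPM (263 to 1094). The 20 basal-like genes summed to 12293 CPM (10615 to 14159.9), against 1195 CPM in all 560 cells, and 8259 CPM of that was Ly6d. Krt19 (1601 CPM) and Wfdc2 (2369) were higher than in clusters 1 to 3, Epcam was 320.1, and Spp1 was 512. Foxa1, a pioneer factor of gut and bladder epithelium, was at 704 CPM (352 to 1260.1), against 50.5 in cluster 1. It is left without a cell type name. With all cells clustered together, 11 of the 12 stayed in a cluster of 17 cells that had no UMI of Cdkn2a, and at a resolution of 0.4 or with 20 principal components all 12 joined the cells of cluster 1.

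Areg, the amphiregulin ligand of the EGF receptor, stood at 425 CPM in the 560 cells and was higher in cluster 1 (636 CPM, 553 to 727) than in cluster 3 (231 CPM, 178 to 295). Hbegf, another ligand of this receptor, stood at 425 CPM, with 446 CPM (377 to 523) in cluster 1 and 552 CPM (468 to 647) in cluster 3, intervals that overlap. Trp53 held 28 UMIs, and of its targets Cdkn1a was 101 CPM (84.0 to 121) and Mdm2 41.1 CPM (30.5 to 54.1), both lower than in the macrophage class (448 and 491). Cdkn2b, the neighbour of Cdkn2a, was at 50.5, 126 and 159 CPM in clusters 1, 2 and 3. Among these clusters both genes were lowest in cluster 1.

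Duct genes and lineage factors also differed by cluster. The 15 pancreatic duct genes summed to 23298 CPM (23028 to 23571) in the 560 cells, most of it Spp1, which 90.5% of the cells held and which was also high in the macrophage class (11480.4 CPM). Car2, the carbonic anhydrase of ducts, stood at 178 CPM (136 to 229) in cluster 1 and 25.3 CPM (10.2 to 52.0) in cluster 3, and Slc4a4, the bicarbonate transporter, at 152 and 21.6 CPM. Sox9, the factor that keeps duct identity, went the other way, at 152 CPM (113 to 199) and 253 CPM (197 to 319), as did Sox4, a factor of epithelial plasticity, at 175 and 343. Hnf4a, of intestinal and classical cells, was at 47.5, 31.4 and 36.1 CPM in clusters 1 to 3 and 127 CPM (61.0 to 234) in cluster 4, near the intestinal class (189). Pdx1, whose promoter drives Cre in this model, was at 18.1 CPM (11.3 to 27.4) in the 560 cells. Cluster 4 held 4 UMIs of it, where 3 counts are 38.1 CPM, so its level there was not the lower one but rests on 4 UMIs.

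Genes that shape and break down matrix had a higher sum in cluster 3 than in clusters 1 and 2. The 20 genes summed to 2439, 3005 and 4304 CPM (4064 to 4556) in clusters 1, 2 and 3. Ctsl, a cysteine cathepsin, stood at 995, 1423 and 2219 CPM, Plat, the tissue plasminogen activator, at 163, 292 and 426, and Timp2, a metalloprotease inhibitor, at 80.2, 171 and 364. Mmp7 was the exception, with 65.4 CPM (41.0 to 99.0) in cluster 1 and no UMI in the other 4. The 22 NRF2 and glutathione genes summed to 8006, 7725 and 6549 CPM. Of its members, Gpx2, the gut glutathione peroxidase, stood at 333, 116 and 14.4 CPM and Gsta4 at 808, 436 and 61.3. Immediate early and heat shock genes, which dissociation can raise, summed to 8108, 5594 and 6649.7 CPM in clusters 1, 2 and 3 and 6806 in all 560 cells, against 7509 in the other cells. Their part in these differences was not tested.

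Chemokines that draw neutrophils came in part from few cells. Cxcl1 stood at 704 CPM (658 to 753), with 38.4% of its UMIs in 10 cells, and was higher in the macrophage class (2562 CPM). Cxcl5 had the opposite source, with 188 CPM (165 to 214) in the 560 cells and no UMI in the macrophage class (3 counts would be 21.4 CPM there), and within the cells it was at 315 and 218 CPM in clusters 1 and 2 and 43.3 in cluster 3. Cxcl2 and Il1b stood at 528 and 72.3 CPM, against 12448 and 2811 in the macrophage class. Of the 15 class I antigen presentation genes, 5 were tested against the other cells and 3 were past 2-fold lower, H2-K1, H2-D1 and B2m, where 8.67% of all genes tested were lower. B2m, the light chain, stood at 670.2 CPM (625 to 718), against 3772 in the macrophage class and 1318 in the intestinal class, and H2-K1 at 147, 833 and 611 CPM. Within the cells, B2m was higher in cluster 3 (1050.0) than in cluster 1 (541), while H2-K1 was lower (54.1 and 187). The 7 class II genes summed to 40.2 CPM, against 5174 in the macrophage class.

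The 17 genes listed for Yap1, a transcriptional coactivator of growth and spreading, include its paralogue Wwtr1 and so are not all targets. They summed to 873 CPM (776 to 979) in cluster 1, 1409 CPM (1308 to 1516) in cluster 2 and 1833 CPM (1677 to 1999) in cluster 3. Axl, a receptor kinase, stood at 8.91, 74.6 and 155 CPM, Ankrd1 at 20.8, 86.4 and 93.8, and Wwtr1, the paralogue of Yap1, at 65.4, 86.4 and 198. Birc5, 1 of the 17 and also in the mitosis list, did not take this order, at 47.5, 287 and 36.1 CPM. Of the tumor-initiating surface genes, Cd44 stood at 289.9 CPM, and Prom1 was at 62.4 CPM in cluster 1 and 0 in cluster 3. Of the S100 genes, S100a6 was at 11154 CPM and was seen in 97.7% of the cells.

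**Figure D4:**
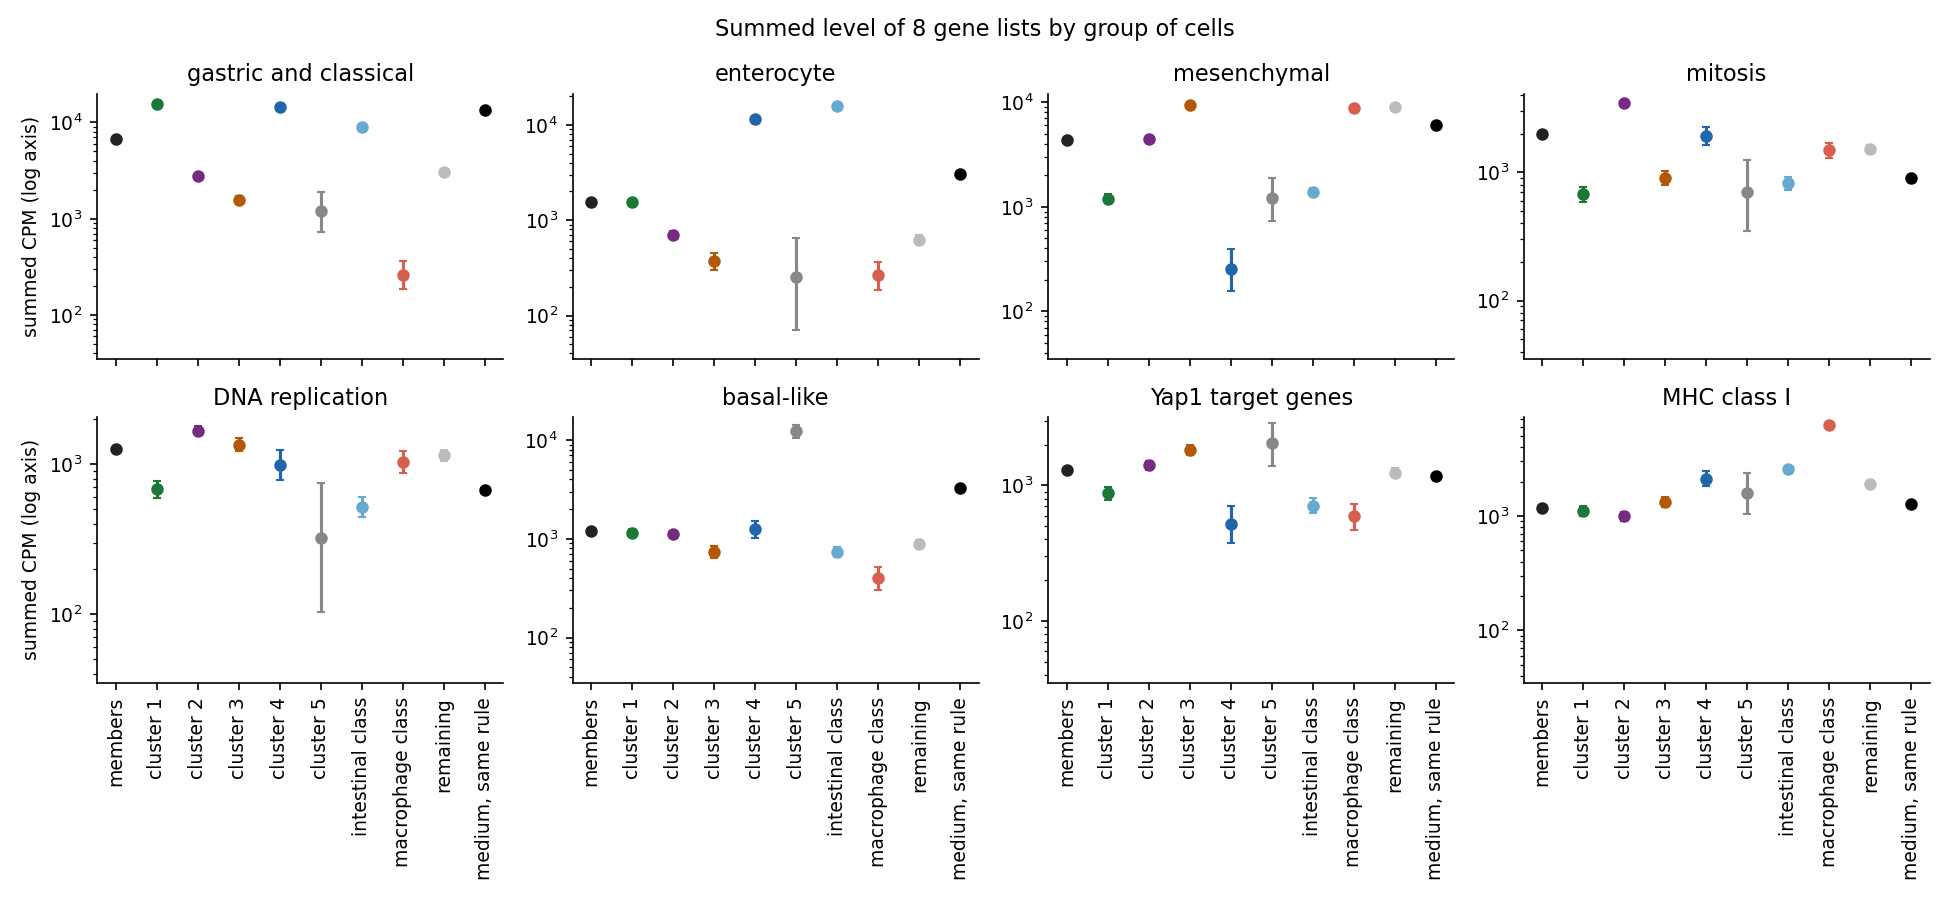
Summed CPM (log axis) of 8 gene lists in the 560 cells (members), their clusters, the other classes of the large tumor and the medium-tumor cells of the same rule, with exact 95% Poisson intervals. Gastric genes are highest in cluster 1 (15558 CPM), mitosis genes in cluster 2 (3509) and mesenchymal genes in cluster 3 (9482), and cluster 4 sits beside the intestinal class for enterocyte genes.

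The large tumor was set against the medium tumor in cells of the same rule, 560 and 2071, called the epithelial cells of each tumor below. All 5 clusters of the large tumor are in this set. Each size is 1 animal and 1 table at its own depth, and tumor size, animal and library cannot be told apart. Of 2660 genes tested, 195 (7.33%) were at least 2-fold higher and 372 (14%) at least 2-fold lower in the large tumor, and the median log2 ratio was -0.02. Of the calls, 34.4% were higher, and with TMM scaling, which called 249 higher and 303 lower, this share was 45.1%. The animals differed in sex-linked genes. Xist, which is transcribed from the inactive X chromosome in cells of females, stood at 2929 CPM (2834 to 3027) in the large tumor, in every cluster, and at 1 UMI in the medium tumor, where the Y-linked Ddx3y held 429 UMIs against 0 in the large tumor. Leaving out clusters 4 and 5 gave 200 and 372 genes.

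Many of these differences were found in macrophages too. Among 968 genes with a mean of at least 100 CPM in both classes of cells, 102 were 2-fold higher in the epithelial cells of the large tumor, and 101 of them were higher in its macrophages, 53 by 2-fold. Likewise 102 were 2-fold lower, of which 94 were lower in its macrophages, 51 by 2-fold. Over all 2414 genes tested in macrophages, with a mean of at least 50 CPM, 11.2% were 2-fold higher and 10.3% lower. Their median log2 ratio was 0.12. The shares that were higher or lower in macrophages among the 968 genes alone were not counted. The share of macrophage UMIs that came from other cells was not tested. Pearson's r between the log2 ratios of the 2 classes was 0.786 and Spearman's rho 0.769 over these genes, which share libraries and are not independent replicates. The differences also followed GC content. Genes were split into 5 groups by GC content in the last 500 bases of their transcripts. In the lowest group (24.4% to 40.4%) the median log2 ratio was 0.32, and in the highest (52.8% to 72.8%) it was -0.64. In macrophages the same groups had 0.41 and -0.44. The part of GC content in each single ratio was not tested, and the macrophage value or the value less the median of the gene's GC group is given for some of the genes.

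**Figure D5:**
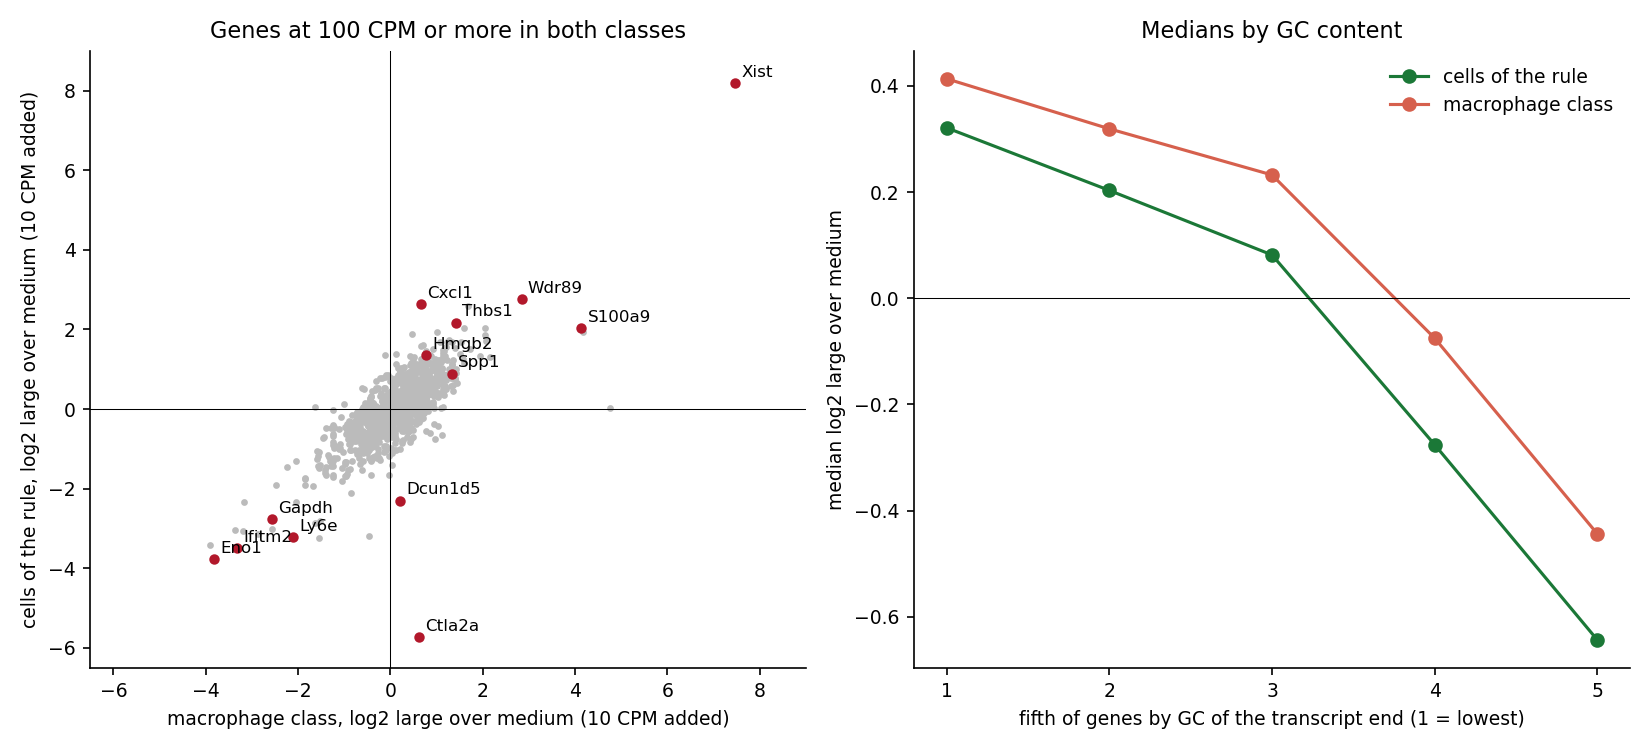
Left, log2 ratio of large over medium tumor (10 CPM added) in the macrophage class (x) and in cells of the rule (y), 1 point a gene, for 968 genes. Right, the median of these log2 ratios over all tested genes by GC group, for both classes. Most genes lie along the diagonal, Ctla2a and Dcun1d5 lie below it, and both medians fall with GC.

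Of the 5 label markers, the keratin genes Krt8, Krt18 and Krt19 were past 2-fold lower in the large tumor (14% of all genes), and Cdkn2a and Epcam were not past 2-fold. Krt18 stood at 1209 against 4176 CPM, Krt8 at 1134 against 3093 and Krt19 at 415 against 1719, which is 4.14 (3.79 to 4.53) times lower. Cdkn2a stood at 179 against 352 CPM, and Epcam at 1106 against 1137, a ratio of 0.972 (0.919 to 1.03). All 5 lie in the group with the highest GC. Less the median of that group, the log2 values were -1.14 for Krt18, -0.80 for Krt8, -1.38 for Krt19, -0.29 for Cdkn2a and 0.60 for Epcam, with 2 of the 5 past 2-fold.

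Of the 25 mitosis genes, 6 passed the limit on CPM and these were past 2-fold higher in the large tumor, where 7.33% of all genes tested were. The limit is on the mean of both tumors, so a low gene such as Cdk1 (72.3 against 35.7 CPM) passed through the tumor where it was higher, and the count is a description. Among the 6 were Cks2 at 354 against 138 CPM, Hmgb2 at 581 against 222, Birc5 at 152 against 58.6 and Ube2c at 136 against 59.5. Their median log2 ratio was 1.22, and 1.08 less the GC medians, at which 3 of the 6 were past 2-fold. In macrophages, 5 of them were tested and their median was 0.52, with 1 past 2-fold, Birc5 (11.2% of all genes). Of the replication genes, 2 of 4 tested were higher (7.33% of all genes), Dut (ratio 4.22 (3.81 to 4.65), log2 1.98 against 0.84 in macrophages) and Pcna (2.35 (1.95 to 2.83), log2 1.09 against 1.29). Members of both lists under the limit on CPM are not in these counts.

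Gastric genes divided. Of 14 tested genes of the list, 2 were 2-fold higher and 5 lower, with a median of -0.64, where 7.33% of all genes tested were higher and 14% lower. Tff2 was higher, at 869.8 against 371 CPM (ratio 2.34 (2.19 to 2.50), log2 less the GC median 1.48), but 196 of its 1059 UMIs in the large tumor lay in 1 cell and 599 in 10 cells, so this ratio rests on few cells. Cldn18 was higher as well, at 193 against 42.9 (ratio 4.49 (3.85 to 5.23), log2 less the GC median 1.74). Gkn1 was lower, at 160.2 against 2663 CPM (ratio inverted 16.6, 14.4 to 19.2), as were Gkn2, Ctse, Dmbt1 and Lgals4, while Gkn3 and Tff1 were less than 2-fold lower (1.54 and 1.58 times). Of 12 tested genes of secreted defence, 8 were lower (14% of all genes) and none higher (7.33%), led by Pglyrp1, a bactericidal peptidoglycan-binding protein (41.1 against 1583 CPM), and Lcn2, an iron-trapping lipocalin (27.1 against 479), with Clu among them (3259 against 12336). Pglyrp1 and Lcn2 were under 50 CPM in the large tumor and passed the limit through the medium tumor, where they were higher, so the count is a description. Less the GC medians, 7 of the 12 were past 2-fold lower. Of 5 secreted defence genes tested in macrophages, 4 were lower (10.3% of all genes there). Clu had a log2 ratio of -2.48 there against -1.92 in the epithelial cells, and Lcn2 had -1.31 in macrophages. Of 3 gastric genes tested in macrophages, 2 were lower (10.3% of all genes there), Gkn1 (1 against 100 UMIs) and Lgals4 (4 against 65 UMIs, log2 -1.29). The share of such UMIs in macrophages that came from other cells was not tested.

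The 15 genes with the highest ratios were led by Xist and included Lypd8, which lay mostly in cluster 4 (log2 ratio 3.15, and 1.39 without clusters 4 and 5). Others were Cxcl1 (704 against 104 CPM), S100g, Nrn1, Thbs1 (315 against 62.1), Tm4sf1 (1951 against 443), Dut, S100a8 and S100a9. Cxcl1 had a log2 ratio of 2.64, against 0.67 in macrophages, and Thbs1 2.17 against 1.42. Tm4sf1 had 2.11, and 7 and 18 UMIs in macrophages of the large and the medium tumor. Less the GC medians, Cxcl1, Thbs1, Tm4sf1, S100g and Nrn1 had 2.32, 1.85, 1.91, 2.42 and 2.14. S100a8 and S100a9, of granulocytes, had log2 ratios of 1.94 and 2.03 in the epithelial cells and 4.18 and 4.14 in macrophages. Wdr89 was equally high in both classes (2.76 and 2.84). The other 4 of the 15, Rps27rt, Rps18-ps3, Rpl27-ps3 and Rps12-ps3, are near-identical copies of ribosomal protein genes, so their counts are uncertain.

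Among the 15 genes with the lowest ratios, Ctla2a, a cathepsin inhibitor, was the lowest, at 20.5 CPM (13.3 to 30.3) against 1605 CPM (1584 to 1626), a log2 ratio of -5.72. In macrophages it was 0.62, from 19 and 65 UMIs. Apoe, the lipid carrier, had -3.20 against -0.47 in macrophages. The large-tumor macrophages held 0 UMIs of Gsta3, a glutathione transferase, and of Mmp7, the matrilysin of duct lesions, and the medium-tumor macrophages 6 and 10, so their ratios in the epithelial cells (-3.14 and -3.62) have no comparison there. Ifitm2, Reep5 and Ly6e were past 4-fold lower in both classes, with log2 ratios of -3.48, -3.14 and -3.22 in the epithelial cells and -3.33, -2.86 and -2.11 in macrophages. Others rest on few UMIs in the large-tumor macrophages. Eno1, the enolase of glycolysis, held 2 UMIs there against 258 in the medium tumor, a ratio of 0.0426 (0.00513 to 0.155), and Gkn1 1 against 100, a ratio of 0.0549 (0.00138 to 0.313). Ucp2 held 1 against 221 (ratio 0.0249, 0.000626 to 0.140) and Ube2s 1 against 192 (ratio 0.0286, 0.000721 to 0.161), while Pglyrp1 was at 0 against 50. Lcn2 and Ecm1 had -1.31 and -1.55 in macrophages, against -3.72 and -3.23. Of the hypoxia and glycolysis genes, 6 of 13 tested were past 2-fold lower and none higher in the epithelial cells (14% of all genes lower), and in macrophages 6 of 16 tested were lower and 1, P4ha1, higher (10.3% and 11.2% of all genes), with Gapdh at 361 against 2519 CPM in the epithelial cells. Eno1 and Gapdh have many processed copies in the genome, so their counts are uncertain too.

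Yap1 lies among neighbouring genes on chromosome 9, of which 9 were listed, 7 were in the tables and 3 passed the limit on CPM. All 3 were past 2-fold lower in the large tumor, where 14% of all genes tested were. Dcun1d5 stood at 177 against 909.6 CPM (log2 -2.30, less the GC median -2.62). Yap1 stood at 41.9 against 186 CPM (log2 -1.91, less the GC median -1.64) and Tmem123 at 40.2 against 155 (log2 -1.72, -2.04), and these 2 passed the limit through the medium tumor, where they were higher. In macrophages, Dcun1d5 held 25 and 118 UMIs (log2 0.21) and Tmem123 14 and 66 (log2 0.20) in the large and the medium tumor, so neither was 2-fold lower there, and Yap1, at 1 and 4 UMIs, was too low in macrophages to compare. In GRCm38, Yap1 lies at chr9:7931999-8004596, Tmem123 at chr9:7764041-7794333 and Dcun1d5 at chr9:7184520-7208205. Of 9 tested genes listed for Yap1, 2 were higher (7.33% of all genes), Wwtr1 (ratio 2.04 (1.67 to 2.47), log2 less the GC median 0.58) and Birc5. Wwtr1 is the paralogue of Yap1 and not a target, and Birc5 is also in the mitosis list. The 1 lower gene (14% of all genes) was Ctgf (27.9 against 214 CPM), which passed the limit through the medium tumor, where it was higher. Ankrd1 was 1.66 times lower and Axl had a ratio of 1.08, neither past 2-fold. Of 14 tested matrix genes, 8 were past 2-fold lower in the large tumor, Mmp7, Mmp13 and Timp1 among them (14% of all genes). Mmp7 passed the limit on CPM through the medium tumor, where it was higher, so the count is a description. The 2 higher genes (7.33% of all genes) were Plat (ratio 3.74 (3.29 to 4.24), log2 1.77, less the GC median 1.57) and Ctsl (2.27 (2.15 to 2.39), log2 1.17 against 0.83 in macrophages). Less the GC medians, 3 of the 14 were past 2-fold lower, and of 11 tested in macrophages 3 were lower (10.3% of all genes there).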

How the data were processed

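Tumors of KPC mice were dissociated and their single cells captured with the 10x Chromium 3′ method (v2 chemistry), which tags each cell with a barcode and each mRNA molecule with a UMI. The authors deposited 1 table of raw UMI counts per gene and cell for each tumor, in which the 4 technical replicates are pooled. Per the labels' processing notes, Cell Ranger and the mm10 build were used, and the version and annotation are not given in the sources used here. Both tables were used whole, with 0 columns left unused, 27775 gene rows, 39 symbols naming more than 1 row (left out of the comparisons by gene), and no further filter on cells.

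Cells were taken by the rule above, and counts were summed over groups of cells and scaled to CPM. The members and all gene lists were chosen with earlier results of these data known. With 1 sample per tumor there is no test: exact Poisson (CPM), binomial (shares) and conditional binomial (ratios) intervals at 95% cover counting error only, since a UMI table holds no replicate. A gene was compared where the mean CPM of both groups was at least 50, called at a 2-fold ratio, and log2 ratios had 10 CPM added. Genes named were the rule and label genes, the 25 highest ratios against the other cells (genes that 25% or more of the 560 cells held) and the 10 lowest (genes that 25% or more of the others held), the 15 highest and 15 lowest between tumors, and the 10 leading genes of each cluster, ranked by the ratio to the other members with 10 CPM added among genes seen in at least 25% of a cluster's cells. Within each list, the most abundant members, those with large ratios and those of a defining role were named, and further members were picked after their values were seen. Clusters came from Seurat 5.3.0 in R 4.3.3 (2000 variable genes, scale factor 10000, 10 principal components, resolution 0.8). Thinning drew 1000 UMIs from each cell with at least that many. TMM factors came from edgeR 4.0.16. GC content was that of the last 500 bases of GENCODE M21 transcripts, held for 97.2% of the genes compared. Doublets were called with Scrublet in scanpy 1.11.5, and other steps used Python 3.11.15, numpy 2.4.6, scipy 1.17.1, pandas 2.3.3 and matplotlib 3.10.9. Some named genes and 1 allele of the model are not reported here. Promoters are RefSeq windows of GRCm38.p6.

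The code was tested on simulated data of 27775 genes with 200 changed. At 3-fold and 4-fold, 100% were recovered in both comparisons, and at most 0.0434% of unchanged genes were called. Of the intervals, 95.8% (against other cells) and 96.4% (between tumors) held the true ratio. All 200 changed genes passed the limit on CPM, so recovery of genes that narrowly miss it was not tested. Recovery is not given for the 2-fold ratio used for calls. The intervals cover counting error only, so these shares do not carry over to genes whose UMIs lie in few cells.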

Additional observations from a re-analysis of the deposited data

How the results depend on the processing

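The number of cells moved with the rule: 373 cells had 4 or more epithelial genes, and 314 of the 788 cells with at least 1000 UMIs met the rule after thinning to 1000, against 560 of 1533. The number of genes called depended on the limits. Genes 2-fold higher than in the other cells came to 61, but to 174 at a limit of 20 CPM, 13 at 200 CPM, 92 with cells weighted alike and 9 at a 4-fold ratio. Genes higher in the large tumor came to 195, but to 348 at 20 CPM, 79 at 200 CPM, 17 at 4-fold and 317 with ribosomal protein genes left out of the totals. Genes lower in the large tumor came to 372, but to 764 at 20 CPM, 94 at 200 CPM, 71 at 4-fold and 192 with the median of each gene's GC group taken off. With ribosomal genes left out, 45.4% of the calls were higher, against 34.4%. The changes with the limits follow from more or fewer genes passing them, and the cause of the others was not tested. Under the other alternatives these counts stayed within 1.5 times, and the number of clusters lay between 4 and 7. No ratio of a named gene that was past 2-fold changed direction in 590 alternative values for 92 ratios, of which 112 lay outside the main value's interval. Of the smaller ratios, those of Epcam and Cldn4 between tumors and of Cldn3 and Elf3 against the other cells changed direction under 1 or more of them. Leaving out clusters 4 and 5, taking off the GC medians and clustering all cells together were chosen after seeing the data. No paired analysis was possible because the technical replicates of each tumor were pooled in 1 table. Depth limits the rare genes: 3 UMIs are 2.46 CPM over the 560 cells but 192 CPM in cluster 5, so a gene at 0 there was not detectable at this depth. The median depth was 1799.5 UMIs in the 560 cells and 5572 in those of the medium tumor. The rule counts genes seen, so depth bears on both its epithelial minimum and its macrophage limit: cells with 3 or more genes of both kinds were left out, 4 in the large tumor and 440 (15.6%, median 8171 UMIs) in the medium tumor.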

Other observations

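Secreted genes differed in how many of the 560 cells held them. Of the 313 UMIs of Reg3b, a secreted lectin, 85.9% came from 10 cells, and 45 cells held any. The mean of Reg3b was 257 CPM (229 to 287), with 1907 CPM in cluster 4 and 439.7 in cluster 1. Dmbt1, a mucosal scavenger protein, was spread more widely, with 28.8% of 451 UMIs in 10 cells. Clu and Wfdc2 were held by 481 and 396 of the 560 cells, and their 10 highest cells held 9.32% and 10.9% of the UMIs.

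Interferon-stimulated genes were low, with a sum of 403 CPM (368 to 441) over 24 genes, 9 of them at 0, against 1751 CPM in the macrophage class. Within the cells, cluster 1 held 573 and cluster 3 227 CPM.

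The mitosis genes of cluster 4 summed to 1932 CPM (1637 to 2265), between clusters 1 and 2, and those of the macrophage class to 1488 CPM. Haemoglobin and other red blood cell genes were at 1029.8 CPM in cluster 4 and 1281 in the macrophage class, against 113, 129.5 and 148 in clusters 1, 2 and 3, and their source was not tested.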
